A study of Mus musculus with 16 samples.

Results

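Khdc1a and Gsta3 are a pair of neighbouring genes on mouse chromosome 1. They were chosen by name, with earlier results of these data known, because the deposited tables give both as higher in the colon of Smarcad1 knockout (KO) mice than of wild type (WT) mice. The values that chose them are the same genotype differences that are given below, so these differences are a description and carry no test. The 2 genes were taken from the 5171 genes that appear in at least 1 of the 4 deposited tables. All 16 libraries were made from whole colon tissue of male C57BL/6 mice, and every mouse had received an enriched microbiota from donor mice of another facility. Smarcad1, a chromatin remodelling ATPase, was deleted in KO mice by Cre recombinase under the villin promoter, which is active in the intestinal epithelium and not in the other cells of the colon wall, from a floxed allele of a mouse line that goes back to 1 embryonic stem cell clone. Whether the WT mice carried the floxed allele or the Cre transgene, and whether each library came from 1 mouse, is not given in the sources used here. The groups were WT control (3 libraries), KO control (3), WT colitis (5) and KO colitis (5), where colitis mice drank 1% dextran sodium sulphate (DSS), a polymer that injures the colon lining, for 15 days. The age of the mice is not given beyond that they were matched for it.

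Khdc1a belongs to a small mouse family of proteins with a KH domain, an RNA binding fold, whose relatives are best known from oocytes and early embryos. The protein has been placed at the endoplasmic reticulum, and its overexpression is known to repress translation and to promote apoptosis. Gsta3 encodes an alpha class glutathione S-transferase, an enzyme that couples glutathione to reactive electrophiles and in mouse liver detoxifies the epoxide of aflatoxin. Glutathione S-transferase genes are known targets of Nrf2, a transcription factor that binds the antioxidant response element.

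Both genes are protein coding and lie on the plus strand of GRCm38. Gsta3 (ENSMUSG00000025934) runs from 21240589 to 21265661, with 9 merged exons of 4344 bases over 4 annotated transcripts. Khdc1a (ENSMUSG00000067750) runs from 21349641 to 21352200, with 3 exons of 1987 bases and 1 annotated transcript. The end of Gsta3 and the start of Khdc1a are 83979 bp apart, and the 3 genes annotated wholly between them are pseudogenes. Downstream of Khdc1a, after a gap of 16131 bp, follows its paralogue Khdc1c (ENSMUSG00000041722, from 21368331 to 21370845), and then Khdc1b, which is in none of the tables and was not analysed here. An antisense gene, Gm28836, crosses Gsta3 on the minus strand from 21250359 to 21271593. None of the exon bases of Gsta3 are covered by exons of Gm28836 (0 bases).

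The coding sequences of Khdc1a and Khdc1c are each 498 bases long and identical at 497 of them, an identity of 99.8%, whereas Khdc1b matches Khdc1a at 354 of 378 aligned coding bases (93.7%). The likeness bears on the measurement, because the authors kept uniquely mapped reads. The stretch around the single difference is shown for both genes (GENCODE transcripts, GRCm38, 121 bases of exon 3, coding bases 356 to 476, plus strand), with the differing base, at coding position 416, in capitals. In Khdc1a it covers chr1:21350948-21351068 and in Khdc1c chr1:21369582-21369702.
Khdc1a: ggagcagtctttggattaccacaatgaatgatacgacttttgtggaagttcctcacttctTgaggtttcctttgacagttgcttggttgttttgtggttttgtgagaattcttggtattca
Khdc1c: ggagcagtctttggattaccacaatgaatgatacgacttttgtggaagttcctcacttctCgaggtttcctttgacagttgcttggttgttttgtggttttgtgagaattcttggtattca
A single read of 100 bases that lies wholly within this stretch covers the capital letter, so it differs between the genes. A read that lies in the coding sequence and does not cover that base is the same in both genes. Reads are single-end of 100 bases by the sample labels and paired-end by the study's methods, so the following shares are for 1 read alone, and a mate elsewhere in the transcript could place some of these reads. Of the 1888 windows of 100 bases along the Khdc1a transcript, 501 (26.5%) occur letter for letter in the transcript of another annotated gene, as do 501 of 1847 (27.1%) for Khdc1c. Within 2 mismatches, 53.2% of the Khdc1a windows are found in Khdc1c, and within 5 mismatches 81.3%. For Gsta3 it was 0 of 4393 windows. A read that matches both genes equally well is not kept as unique, so Khdc1a and Khdc1c may be counted too low, unlike Gsta3. How reads that differ by a few letters were divided between Khdc1a and Khdc1c is uncertain.

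For Gsta3 the promoter is shown, because the antioxidant response element is the sequence through which the glutathione S-transferase family is best known to be regulated. It covers chr1:21240335-21240634 on the plus strand (RefSeq, GRCm38.p6), from 250 bases before the start to 50 after it, with a match to the element's core in capitals.
Gsta3 promoter: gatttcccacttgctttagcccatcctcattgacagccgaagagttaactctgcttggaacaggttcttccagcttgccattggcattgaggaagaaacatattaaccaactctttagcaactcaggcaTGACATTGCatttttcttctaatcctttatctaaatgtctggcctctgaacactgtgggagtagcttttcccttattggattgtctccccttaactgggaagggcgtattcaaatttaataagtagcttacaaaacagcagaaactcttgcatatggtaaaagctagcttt
The core TGACNNNGC was searched on both strands and matched once, 121 bases before the start. The same letters occur in 12.5% of 27025 RefSeq promoters of this length, so the match is not rare. CCAAT matched at 2 places on the minus strand, as it does at least once in 37.9% of promoters. The AP-1 site TGACTCA was not matched on either strand of this window, and 5.17% of promoters hold it. The TATA box TATAAA, found in 14.2% of promoters, was not matched either. The same was true of the GC box GGGCGG, which 35.9% of promoters hold. The E-box CACGTG, held by 7.24%, was not matched. The Gsta3 promoter held 2 CG dinucleotides where the median promoter held 7, and 76.2% of promoters held more.

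Levels are given as the authors' group means in log2 RPM, the reads of a gene scaled to a common library total, which are not corrected for gene length. Single libraries are not shown, because the deposited tables analysed here hold group means. Values by sample in the study's supplement were not used. The geometric mean library size, read back from the steps of the lowest means, was 10.1 M reads for the WT and 9.77 M for the KO control group, and 8.005 M for the WT and 9.87 M for the KO colitis group. In that order, 3 reads per library, the floor used here, lie at −1.75, −1.70, −1.42 and −1.72 log2 RPM. Smarcad1 itself was at 5.77 in WT control and 4.59 in KO control, and at 5.68 and 4.55 in colitis, which is lower in KO by −1.18 and −1.13, as the group labels require. The rest of its reads cannot be assigned, since the tissue holds cells in which the villin promoter is silent and only some exons were floxed. In whole tissue, fewer cells of a type and less RNA per cell cannot be told apart, for any gene given here.

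Khdc1a was close to absent in untreated WT colon. Its mean there was −0.54 log2 RPM, or about 6.95 reads per library and at least 20.9 reads over the group. In KO control it stood at 5.66, or 494 reads per library. The mean in WT colitis was 5.25, or 305 reads per library, and that in KO colitis 7.55, or 1843 reads per library. Khdc1a thus stood lowest in WT control and highest in KO colitis, with KO control and WT colitis between them and within 0.41 log2 units of each other.

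Gsta3 was well expressed in every group. Its means were 4.85 log2 RPM in WT control, 5.82 in KO control, 5.10 in WT colitis and 6.34 in KO colitis. These correspond to 291, 552, 274 and 802 reads per library. Both KO means were above both WT means.

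**Figure D1:**
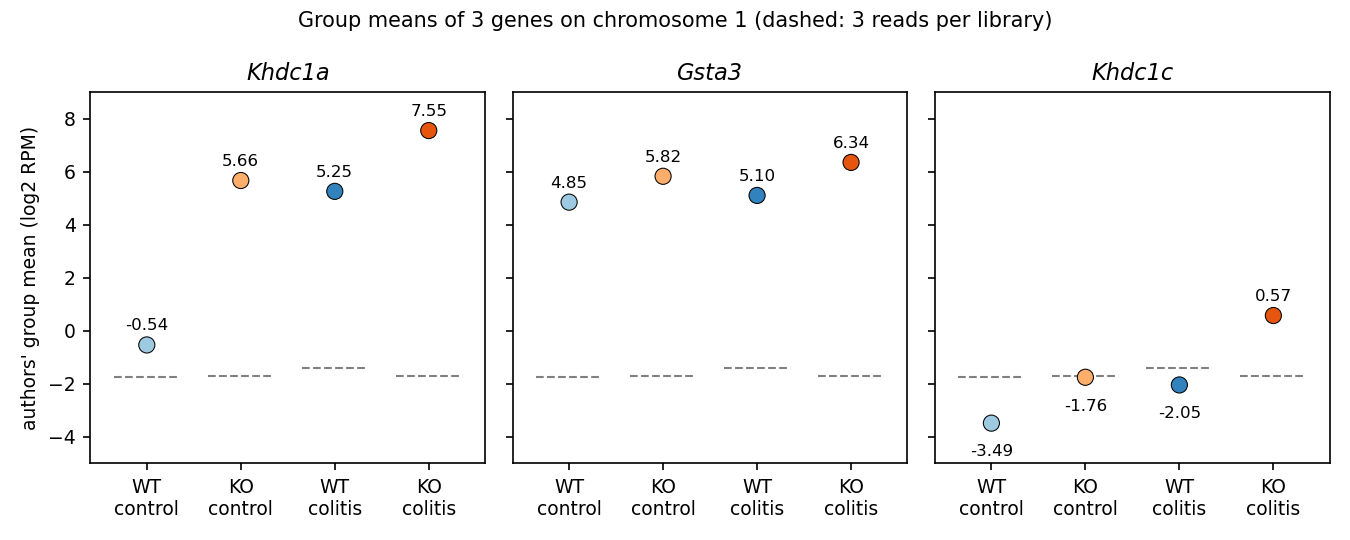
The authors' group mean in log2 RPM (y axis) is plotted for Khdc1a, Gsta3 and Khdc1c in the 4 groups (x axis). Each point is 1 group mean, no error bar can be drawn from means, and a dashed line marks 3 reads per library in that group. Khdc1a spans −0.54 to 7.55 and Gsta3 4.85 to 6.34, while Khdc1c rises above the dashed line in KO colitis alone.

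Without DSS, Khdc1a was 6.20 log2 units higher in KO than in WT, a 73.6-fold difference. The interval from counting error was 5.57 to 6.89, wide because of the few reads in WT control, and like all such intervals here it covers counting error only and not the spread between mice. Among the 5171 listed genes this was the highest difference, followed by 4.81 for AC151971.2. Here and for every numbered place below, means under the floor were taken at 3 reads per library. Gsta3 was 0.98 higher in KO control (counting interval 0.86 to 1.10), a 1.97-fold difference that was at place 47. By a difference of at least 2-fold, 1 of the 2 genes was higher in KO control, against 1.08% of the 5171 listed genes, and Gsta3 lay just under that line. Nothing is read from this count, since this contrast chose the genes. The deposited table of this comparison lists both.

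In colitis, the genotype difference of Khdc1a was smaller and that of Gsta3 was larger. Khdc1a was 2.29 higher in KO (counting interval 2.21 to 2.37), a 4.90-fold difference at place 10. Gsta3 was 1.25 higher (1.16 to 1.33), or 2.37-fold, at place 39. Both were over 2-fold higher in KO colitis, against 1.49% of all listed genes, and both are in the deposited table of this comparison. The genes were chosen by their genotype differences, so nothing is read from this count either. The median difference over all listed genes was 0.005 in control and −0.01 in colitis.

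**Figure D2:**
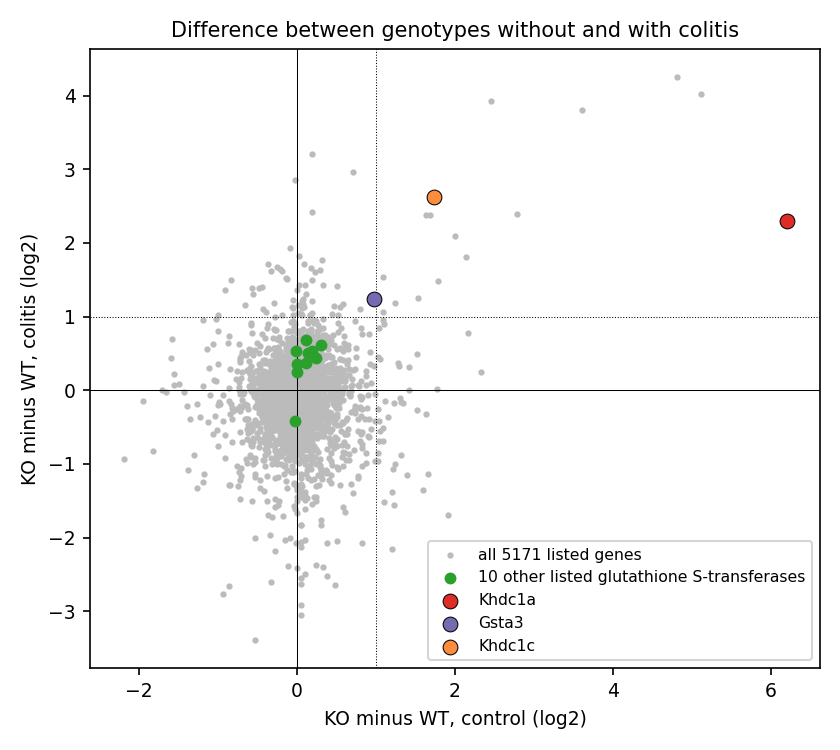
The KO minus WT difference of the authors' means (log2) in control (x axis) is plotted against that in colitis (y axis) for all 5171 listed genes (grey), with Khdc1a, Gsta3, Khdc1c and the 10 other listed glutathione S-transferase genes marked and dotted lines at a 2-fold difference. Khdc1a lies farthest to the right at 6.20 and 2.29, and Gsta3 at 0.98 and 1.25 lies apart from the other transferases. Khdc1a and Gsta3 were chosen by these differences. Both control means of Khdc1c are at or under 3 reads per library, so its place along the x axis is not a measured fold.

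With colitis, Khdc1a was higher in both genotypes and Gsta3 stayed much closer to its control level. In WT, Khdc1a was 5.79 higher in colitis than in control (counting interval 5.17 to 6.48), a 55.5-fold difference at place 10, where Reg3b, an antimicrobial lectin of the gut epithelium, led with 10.37. In KO it was 1.88 higher (1.80 to 1.96), or 3.69-fold, at place 279. Gsta3 was 0.25 higher in WT colitis (0.13 to 0.38) and 0.52 higher in KO colitis (0.44 to 0.61), or 1.19-fold and 1.44-fold. A difference of at least 2-fold was seen for Khdc1a alone of the pair in each genotype, against 18.4% of all listed genes in WT and 16.0% in KO. The deposited tables list Khdc1a for colitis in both genotypes and Gsta3 for colitis in KO, not in WT.

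The median difference over all listed genes was 0.13 in WT and 0.19 in KO, and relative to that shift Gsta3 was 0.13 higher in WT colitis and 0.33 higher in KO colitis. Relative to the same shift, Khdc1a was 5.67 higher in WT and 1.69 higher in KO.

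The KO change with colitis minus the WT change was −3.91 log2 units for Khdc1a, the lowest value of this quantity among all 5171 listed genes. With means under the floor taken at 3 reads per library it was the lowest as well, and the next was −3.11 for Cxcl3, a neutrophil chemokine. For Gsta3 it was 0.27. These differences of differences were not tested here. Since the 4 differences are formed from 4 means, a high mean in KO control enters both the genotype difference in control and the smaller colitis difference in KO. The low mean in WT control, 6.95 reads per library, likewise enters the genotype difference in control, the colitis difference in WT and the value of −3.91. Khdc1a was nevertheless higher in KO colitis than in any other group.

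Per kilobase of merged exons, the order of the 2 genes turned over between WT control and the other groups. Gsta3 was 19.1-fold higher than Khdc1a in WT control, at 2.73 against −1.53 log2 RPKM. Khdc1a was 1.96-fold higher in KO control, 2.43-fold higher in WT colitis and 5.03-fold higher in KO colitis. The merged exons of Gsta3 are longer than its longest coding transcript, of 1457 bases. With that length in place of the merged exons, Khdc1a minus Gsta3 became −0.61 log2 units in KO control and −0.29 in WT colitis. The order in these groups thus depends on the length used, while the difference was −5.83 in WT control and 0.75 in KO colitis. Neither length corrects for reads of Khdc1a lost in the stretches it shares with Khdc1c.

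Khdc1c had far fewer reads than Khdc1a in every group. In WT control all libraries were at 0 reads, and KO control and WT colitis had means of 2.88 and 1.93 reads per library, which are under the floor. In KO colitis the mean was 0.57 log2 RPM, or 14.6 reads per library. It was thus at least 3.96-fold higher there than in WT colitis, and at least 4.83-fold higher than in KO control, with the lower mean taken at 3 reads per library. As a share of Khdc1a reads, Khdc1c stood at 0.584% in KO control, 0.634% in WT colitis and 0.794% in KO colitis. The share was thus below 1% in each of these groups, and Khdc1a itself differed 3.69-fold between the KO groups. The shares in KO control and WT colitis rest on Khdc1c means under the floor, so whether the share is constant cannot be read from them. Whether the Khdc1c counts are reads from Khdc1a placed on the paralogue was not tested.

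The genotype difference was then set against position on the chromosome. Within 1 Mb of Khdc1a, 44 genes are annotated with Khdc1a included, 14 of them protein coding, and 8 of these 14 are listed. Besides Khdc1a, Khdc1c and Gsta3 these were Il17a, Mcm3, Paqr8, Kcnq5 and Rims1. Tmem14a, the coding gene next to Gsta3 on the far side from Khdc1a, is not listed and was not analysed here.

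None of the other 5 genes was 2-fold higher in KO, against 1.08% of all listed genes in control and 1.49% in colitis. Nothing is read from this count, which is near those shares. Mcm3, a subunit of the replicative helicase, differed by 0.12 in control and −0.08 in colitis. Paqr8, a membrane progesterone receptor, differed by 0.27 and −0.17. The potassium channel gene Kcnq5, which starts the listed genes on the far side of Khdc1c at a gap of 46.2 kb from Khdc1a, differed by −0.48 and 0.36. Rims1, which acts at presynaptic release sites, differed by −0.70 and −0.14. Il17a, the cytokine of type 17 lymphocytes, was at 0 reads in every control library and was lower in KO colitis by −1.40, at −1.30 against 0.11 log2 RPM in WT colitis. Of the 8 listed genes, Gsta3, Khdc1a and Khdc1c were over 2-fold higher in KO colitis. Khdc1a and Gsta3 were chosen by their genotype differences and the origin of the Khdc1c reads was not tested, so no cluster is read. The 5 listed genes outside the stretch from Gsta3 to Khdc1c gave differences of either sign. Among them, Kcnq5 has its nearest end 46.2 kb from Khdc1a, and Gsta3 has its nearest end at 84.0 kb. Kcnq5 lies on the minus strand, so that end is where its transcript ends. Its transcript starts 612 kb from the start of Khdc1a, and that of Gsta3 starts at −109 kb. By transcript starts, Gsta3 is thus the nearer.

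**Figure D3:**
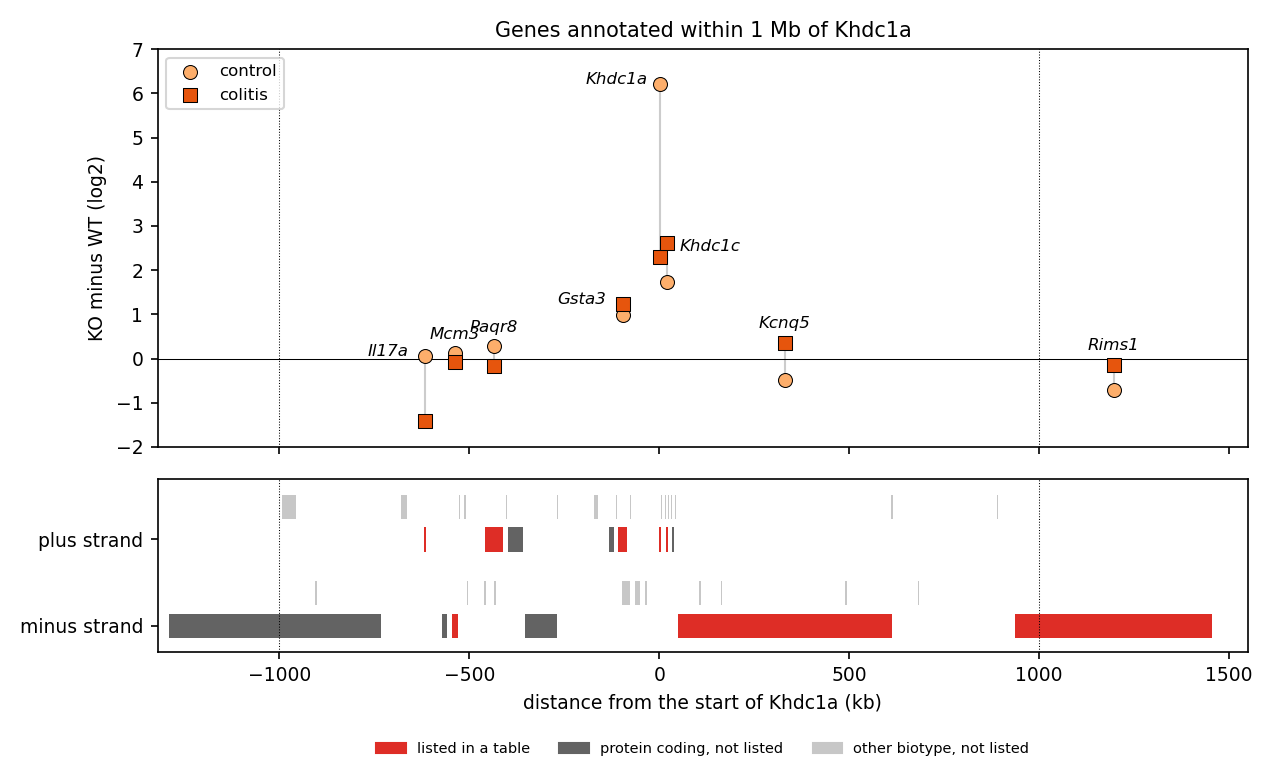
The upper panel plots the KO minus WT difference (log2, y axis) of the 8 listed genes around Khdc1a at the midpoint of each gene (x axis, kb from the start of Khdc1a), with circles for control and squares for colitis. The lower panel draws all 44 annotated genes to scale by strand, and dotted lines mark 1 Mb. Khdc1a reaches 6.20 and Gsta3 1.25, while the listed genes outside the stretch from Gsta3 to Khdc1c lie between −1.40 and 0.36. The circle of Khdc1c rests on means at or under 3 reads per library.

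Gsta3 was then compared with its own enzyme family. Of 31 symbols of glutathione S-transferases, among which some genes appear under 2 names, 11 are listed in the tables. Gsta3 was the only one of the 11 that was 2-fold higher in KO colitis, against 1.49% of all listed genes. None of the 11 was so in control, against 1.08%. Nothing is read from these counts, since Gsta3 was chosen by its genotype differences. The other 10 differed by −0.03 to 0.30 in control, with a median of 0.11, and by −0.42 to 0.68 in colitis, with a median of 0.47. In colitis 9 of these 10 were higher in KO than in WT, and in control 7 of 10. The medians over all listed genes are those given above, 0.005 and −0.01.

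Gsta4, the other listed alpha class gene, which acts on the lipid peroxidation product 4-hydroxynonenal, lay on the other side of 0. It differed by −0.03 in control and −0.42 in colitis. Gsta1 and Gsta2 are not in the tables and were not analysed here. The 6 listed mu class genes were all higher in KO colitis, by 0.25 to 0.68, with Gstm7 (0.68), Gstm6 (0.62) and Gstm1 (0.53) in front. All 6 were lower in WT colitis than in WT control, by −0.90 to −0.07, whereas Gsta3 was 0.25 higher. Gstp3, of the pi class, was 0.53 higher in KO colitis and, unlike most of the family, was higher in colitis, by 1.49 in WT mice and 1.83 in KO mice. Gsta3 differed from the listed mu class genes in sign for colitis in WT. In control its genotype difference was 0.98, the next in the family being 0.30 for Gstm6. Gsta3 was chosen by its genotype differences, so its lead in them was fixed in advance and nothing is read from it.

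**Figure D4:**
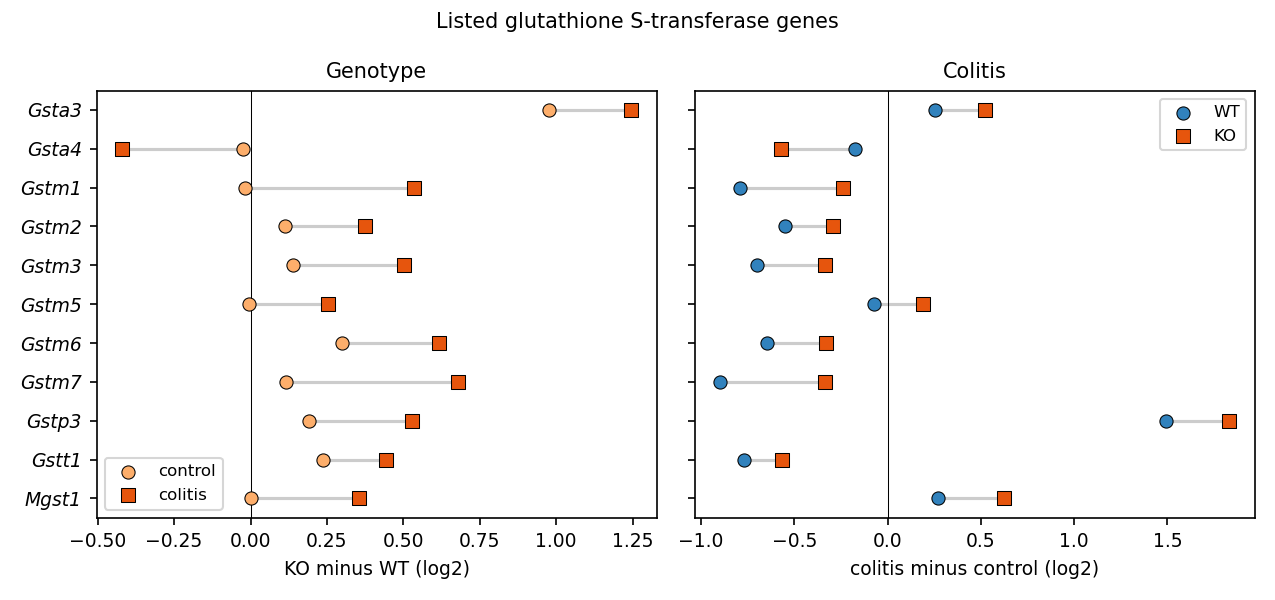
Differences of the authors' means (log2, x axes) are plotted for the 11 listed glutathione S-transferase genes (y axis), on the left KO minus WT in control (circles) and colitis (squares), on the right colitis minus control in WT (circles) and KO (squares). Gsta3, which was chosen by its genotype differences, has the largest of them, at 0.98 and 1.25. Gstp3 has the largest colitis differences, at 1.49 and 1.83.

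The wider list of 33 glutathione and Nrf2 target genes held 16 listed genes. None of the 16 was 2-fold higher or lower by genotype in either condition. Of all listed genes, 1.08% in control and 1.49% in colitis were 2-fold higher in KO. The count of the 16 is near these shares, and nothing is read from it. The share of genes that were 2-fold lower was not computed for any comparison. The median genotype difference of the 16 was 0.04 in control and −0.06 in colitis. The differences of largest size, all in colitis, were −0.55 for Gpx3, a secreted glutathione peroxidase, 0.54 for Ugdh, which makes UDP-glucuronate, 0.53 for the conjugate exporter Abcc2, −0.48 for the haem oxygenase Hmox1 and −0.44 for Ggt1, which splits extracellular glutathione. With colitis, 4 of the 16 were at least 2-fold higher in each genotype, against 18.4% of all listed genes in WT and 16.0% in KO, among them Gpx2 at 1.44 and 1.23. Ugdh (−1.31) and Abcc2 (−1.06) were at least 2-fold lower in WT colitis. Gsta3 did not reach that fold in either genotype.

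Khdc1a was likewise set beside genes of oocytes, germ cells and early embryos. Of 32 such genes 2 are listed, Khdc1c and Oas1d, an oocyte protein of the oligoadenylate synthetase family. Oas1d differed between genotypes by 0.28 in control and −0.37 in colitis, with means between −2.42 and −0.07 log2 RPM. Both of its colitis means, −2.05 in WT and −2.42 in KO, were under the floor, so its colitis difference is not a measured fold. The egg coat gene Zp3, the oocyte growth factors Gdf9 and Bmp15 and the germ cell helicase Ddx4 are not listed (0 of 4), so the tables give no group of germ line genes that differed with Khdc1a. A gene that is not listed did not pass the authors' threshold in any comparison, and its level was not analysed here.

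The tissue label was checked with markers. Of 14 colon epithelium markers 3 are listed, Car1, Slc26a3 and Aqp8, at 11.74, 11.07 and 10.76 log2 RPM in WT control. Their summed level was 7311 RPM in WT control, 6945 in KO control, 3452 in WT colitis and 3396 in KO colitis. Of the leukocyte markers 4 of 5 are listed, and their summed level was 441 and 453 RPM in the control groups and 1169 and 1149 in colitis. For smooth muscle 2 of 5 are listed, with sums of 3619, 3358, 2345 and 2316 RPM in the same group order, and for fibroblasts 3 of 4, with sums of 2017, 1936, 3846 and 2843. None of the listed markers was at 0 in any group. With colitis the sum of the listed epithelial markers was lower and that of the listed leukocyte markers higher, in the comparisons in which Khdc1a was higher. The listed markers passed the authors' threshold in at least 1 comparison, so their sums do not stand for the cell type as a whole. Between genotypes in colitis, the epithelial markers moved apart, with Slc26a3 0.59 and Aqp8 0.59 higher in KO and Car1 different by −0.81, beside 1.25 for Gsta3 and a median of 0.47 for the other transferases. The part of cell composition in the genotype and colitis differences of Khdc1a, Gsta3 and the transferases was not tested.

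Last, the genes whose 4 group means were most like each of the pair were listed, by the Euclidean distance between the means, each centred on its own average, over 4 groups and 5171 genes. The pattern of Khdc1a had no close match among the means as given. The nearest, G530011O06Rik on chromosome X, was at a distance of 3.44 log2 units, followed by AC151971.2 (3.61), Khdc1c (3.72), Gm10800 (3.85) and Ceacam12 (3.92). Of these, AC151971.2 was 4.81 and 4.25 higher in KO in control and colitis but only 0.94 higher with colitis in WT, and Ceacam12 was 3.47 higher with colitis in WT but 0.91 and 0.77 higher in KO. No mean was raised to the floor for these distances. The WT control means of G530011O06Rik, Khdc1c and Gm10800 lie under the floor, so their distances from Khdc1a are uncertain. Khdc1a had both a high genotype difference in control and a high colitis difference in WT, and both are formed with the same low mean in WT control. Gsta3 had closer matches, with 2610524H06Rik at 0.26, Mctp1 at 0.30, Nxf7 at 0.42, Hoga1 at 0.48 and Unc5cl at 0.52. None of these 5 lies on chromosome 1. The patterns of Khdc1a and Gsta3 were 5.11 apart.

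Of the 5171 listed genes, 16 were at least 2-fold higher in KO in both conditions. Khdc1a is one of them, Khdc1c is another whose control means were at or under the floor, and Gsta3 missed by its control difference of 0.98. Besides Khdc1a and Khdc1c, the others of the 16 lay between −1.84 (Slc7a15) and 0.94 (AC151971.2) for colitis minus control in WT, and Khdc1a was at 5.79. The WT colitis means of Slc7a15 and Shc3, and both WT means of Kirrel2 and Treh, were under the floor. For these genes the colitis difference in WT is not a measured fold.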

How the data were processed

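RNA from whole colon was sequenced as 100-base reads, single-end per the labels and paired-end per the study's methods. The authors mapped reads to GRCm38 with HISAT2 2.1.0, kept unique reads, removed reads annotated as ribosomal RNA and counted reads over exons of merged transcripts in SeqMonk. Strand use is not given in the sources used here. The 4 deposited tables hold genes for which the authors obtained a DESeq2 adjusted p-value under 0.05 in 1 comparison. That p-value column holds the authors' findings and was not used. The deposited log2 columns are the authors' group means of log2 RPM, with 0 reads entered as 0.9 read, and were identical between tables.

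Differences are between these means and were not tested, since the deposited tables analysed here hold no single libraries and values by sample in the study's supplement were not used. Library sizes were recovered from the steps of means under 3 reads (tolerance 2e-06), a step tested on simulated data. Counting intervals (95%) are binomial and exact for the recovered reads, which are lower limits because the means are geometric. Genes, exons and transcripts came from GENCODE M21 on GRCm38, and promoters from RefSeq. The members and lists were chosen with earlier results of these data known. Named genes were the members, listed genes within 1 Mb, the gene lists by size of the genotype difference, and the 5 most similar patterns. Alternatives added 1 RPM, recentred by the median, raised means to 3 reads, and varied windows, thresholds and gene length, the last chosen after seeing the data, as was the ranking with low means at 3 reads. Python 3.11.15, pandas 2.3.3 and scipy 1.17.1 were used.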

Additional observations from a re-analysis of the deposited data

How the results depend on the processing

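No paired analysis was possible because the tables that were used hold means of groups. Single libraries were not left out for the same reason, and values by sample in the study's supplement were not used. Depth limits Khdc1a in WT control, with 6.95 reads per library. No alternative turned the direction of a difference for either gene. With 1 RPM added to each mean, Khdc1a was 4.93 higher in KO control than WT control and 4.53 higher in WT colitis than WT control. Recentred by the median of all listed genes, the colitis difference was 1.69 for Khdc1a in KO, and 0.13 in WT and 0.33 in KO for Gsta3. Raising means to 3 reads changed no difference of the pair because none of its means lies under that level, and the tables that list a gene give the same means, so neither check bears on stability. Within 100 kb of Khdc1a 4 genes are listed, and within 500 kb 5. At a log2 difference of at least 0.5, 1 glutathione S-transferase gene was higher in KO control and 6 in KO colitis. The share of all listed genes at this looser threshold was not computed, so nothing is read from these counts. With the length of the longest coding transcript, a choice made after seeing the data, Khdc1a minus Gsta3 per kilobase was −0.61 in KO control and −0.29 in WT colitis, against 0.97 and 1.28 with merged exons.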
